A study of Homo sapiens with 18 samples.

Results

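H/ACA box snoRNAs are short RNAs of the nucleolus that guide pseudouridylation, the conversion of uridine to its isomer pseudouridine, mostly in ribosomal RNA. Each folds into a pair of hairpins joined by a hinge that carries the H box, with a tail that ends in the trinucleotide ACA shortly before the 3′ end. A core of dyskerin, NHP2, NOP10 and GAR1 binds the RNA, and an unpaired loop in a hairpin pairs with the target around the modified base. In human cells most are cut from introns of host genes, often genes of ribosomal proteins or of translation factors. A few members have other roles, such as SNORA73A and SNORA73B (U17), which act in the cleavage of the 18S rRNA precursor.

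The values described here come from small RNA libraries of HEK293T cells, a human embryonic kidney line, transfected for 48 h with an siRNA against SSB (siSSB) or with a scramble siRNA (control). SSB encodes La, which binds the 3′ ends of new RNA polymerase III transcripts. RNA was taken from whole cells (total), from nuclei (nuc) or from cytoplasm (cyto), so that 18 libraries made 6 groups of 3 replicates. All were marked as prepared with PNK. Members were all rows of the count table whose name starts with SNORA and a digit and whose length is at most 500 nt. Of 175935 rows in all, 194 met this rule, under 184 names. Of these, 22 held no count in any library and 3 repeated the counts of another, which left 169 members with counts. Among the 169, 149 held at least 10 counts over all libraries, 128 held at least 100, and 20 held fewer than 10.

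The members carry the hallmarks that their name implies, which the rule did not use. The ends used were those of the matching GENCODE v44 snoRNA for 142 members, of which 120 lay exactly 25 nt inside both row ends. From the other members 25 nt of flank was removed at each end. The median length was then 134 nt and the range 84 to 272 nt. ACA stood 2 to 4 bases before the 3′ end in 138 of 169 (81.7%), and the H box letters ANANNA stood in the middle part of the sequence in 151 (89.3%). Both were found in 124 (73.4%). Rows of C/D box snoRNAs, the class that guides 2′-O-methylation, were searched for the same letters on the listed strand, always with 25 nt removed at each end. Of 229 such rows 3.93% had the ACA, 33.2% the ANANNA and 0.437% both. The middle part is a share of the length, so a shorter RNA offers fewer positions for ANANNA. Of the 169 members, 141 lay in an intron of a host gene, 7 over an exon of the host's canonical transcript and 21 in no annotated host. The host was a protein-coding gene for 120 members and a long noncoding RNA for 22. There were 114 hosts, and 22 of them carried 2 or more members, 56 members in all. A total of 58 members were at least 90% identical to another member, so that reads of such copies may be shared between them.

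The sequences of the members on which the results turn are given 5′ to 3′ as DNA letters from hg38, without flanks. Capitals mark the first ANANNA of the middle part, where there is one, and the ACA before the 3′ end. The first pair were among the 3 members with the most counts, SNORA2C in an intron of KANSL2 (chr12:48654382-48654518, minus strand) and SNORA64, a 28S rRNA guide, in RPS2 (chr16:1962973-1963106, minus strand).
SNORA2C: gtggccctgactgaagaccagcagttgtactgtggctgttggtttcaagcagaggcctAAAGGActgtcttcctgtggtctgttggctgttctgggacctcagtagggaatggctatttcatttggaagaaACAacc
SNORA64: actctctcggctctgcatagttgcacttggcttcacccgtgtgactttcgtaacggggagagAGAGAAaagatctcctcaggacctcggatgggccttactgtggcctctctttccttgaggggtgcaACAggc
The next pair had the highest ratios of nuc to cyto, SNORA47 in ZBED3 (chr5:77080434-77080571, minus strand) and SNORA80A in URB1 (chr21:32377187-32377322, minus strand).
SNORA47: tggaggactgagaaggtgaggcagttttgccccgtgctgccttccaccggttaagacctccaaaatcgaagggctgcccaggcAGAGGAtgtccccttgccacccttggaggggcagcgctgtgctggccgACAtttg
SNORA80A: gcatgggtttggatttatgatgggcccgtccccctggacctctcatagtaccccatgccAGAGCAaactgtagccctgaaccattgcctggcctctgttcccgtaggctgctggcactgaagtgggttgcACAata
The next 3 were among those with the lowest ratios, SNORA62, a 28S rRNA guide in RPSA (chr3:39411054-39411206, plus strand), SNORA79 in GTF2A1 (chr14:81202695-81202834, minus strand) and SNORA79B in CCNB1IP1 (chr14:20323179-20323326, minus strand). SNORA79B has no ANANNA in its middle part.
SNORA62: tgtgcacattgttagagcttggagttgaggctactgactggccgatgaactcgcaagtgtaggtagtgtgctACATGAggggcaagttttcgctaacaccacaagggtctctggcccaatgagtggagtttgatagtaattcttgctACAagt
SNORA79: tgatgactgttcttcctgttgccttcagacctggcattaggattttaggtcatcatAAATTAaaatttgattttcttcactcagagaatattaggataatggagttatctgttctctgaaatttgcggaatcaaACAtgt
SNORA79B: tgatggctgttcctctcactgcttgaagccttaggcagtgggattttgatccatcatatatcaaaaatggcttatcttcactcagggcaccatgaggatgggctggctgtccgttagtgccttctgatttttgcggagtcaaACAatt
The last pair, the 28S rRNA guides SNORA7A in RPL32 (chr3:12840312-12840450, minus strand) and SNORA7B in a long noncoding RNA (chr3:129397210-129397348, minus strand), differ at 2 of 139 bases, G26C and C114T (the base of SNORA7A, the position counted from the 5′ end, the base of SNORA7B).
SNORA7A: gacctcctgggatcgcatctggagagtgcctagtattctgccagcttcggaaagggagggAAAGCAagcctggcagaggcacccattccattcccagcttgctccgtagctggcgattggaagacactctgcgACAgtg
SNORA7B: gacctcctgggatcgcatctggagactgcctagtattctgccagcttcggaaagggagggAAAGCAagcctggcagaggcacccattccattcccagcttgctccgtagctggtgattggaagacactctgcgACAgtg

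The level of SSB mRNA was not analysed here, and siSSB is used as the libraries are labelled. A row of a long noncoding RNA over SSB exons, HSALNG0020274, held 12, 15 and 19 counts in control total against 698, 1267 and 547 in siSSB total, 32, 25 and 30 in control cyto against 3145, 983 and 3304 in siSSB cyto, and 5, 1 and 4 in control nuc against 13, 5 and 14 in siSSB nuc. Its counts were far higher in siSSB total and cyto, their source was not tested, and the knockdown could not be checked from them. The vault RNAs VTRNA1-1 and VTRNA1-2, Pol III transcripts, were lower in siSSB in all 3 kinds of RNA (VTRNA1-1 in total, log2 fold change −2.25 ± 0.34 SE, edgeR quasi-likelihood test, adjusted p = 0.0128 by Benjamini-Hochberg). They were the exception among 10 Pol III RNAs looked at, of which 3 passed as lower in total, 2 in nuc and 2 in cyto. VTRNA1-3 passed in total only, and the Y RNAs, RMRP, RPPH1 and RN7SK passed in none. Under TMM scaling all 9 rows of U6 snRNA were higher in nuc than in cyto in control and in siSSB cells, and the cytoplasmic Y RNA RNY1 was lower in nuc in control (−4.01). Other nuclear RNAs were less clear, since RN7SK was lower in nuc in control (−1.22, adjusted p = 0.00143) and of 60 rows of MALAT1 and NEAT1 10 were higher, with a median of 0.30. Column sums ran from 21565995 to 158244813 counts, but rows overlap and a read can be counted more than once. The rows of at most 500 nt, taken once where their counts were identical and called small rows here, summed to 2468129 to 7970923 counts per library.
H/ACA snoRNAs made up a small part of the small RNA counts, and the part was largest in nuclei. In control cells the members held 1.94%, 2.87% and 3.47% of small-row counts in nuc, 0.715%, 0.423% and 0.388% in total, and 0.204%, 0.211% and 0.203% in cyto. In siSSB cells the shares were 2.48%, 3.73% and 2.24% in nuc, 0.360%, 0.485% and 0.411% in total, and 0.231%, 0.323% and 0.266% in cyto. The lowest nuc library therefore stood above the highest total library, and the lowest total above the highest cyto, in both treatments. As means over 3 replicates the control shares were 2.76% ± 0.769 (SD) in nuc, 0.508% ± 0.180 in total and 0.206% ± 0.00435 in cyto. The siSSB means were 2.82% ± 0.800, 0.419% ± 0.0629 and 0.273% ± 0.0460. In nuc and in total the siSSB range overlapped that of control, and in cyto it lay just above it. Control total replicate 1 stood apart from the other control total libraries, with 45880 H/ACA counts against 19917 and 18221. Counts of a bulk sample do not tell fewer cells from less RNA per cell.

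**Figure D1:**
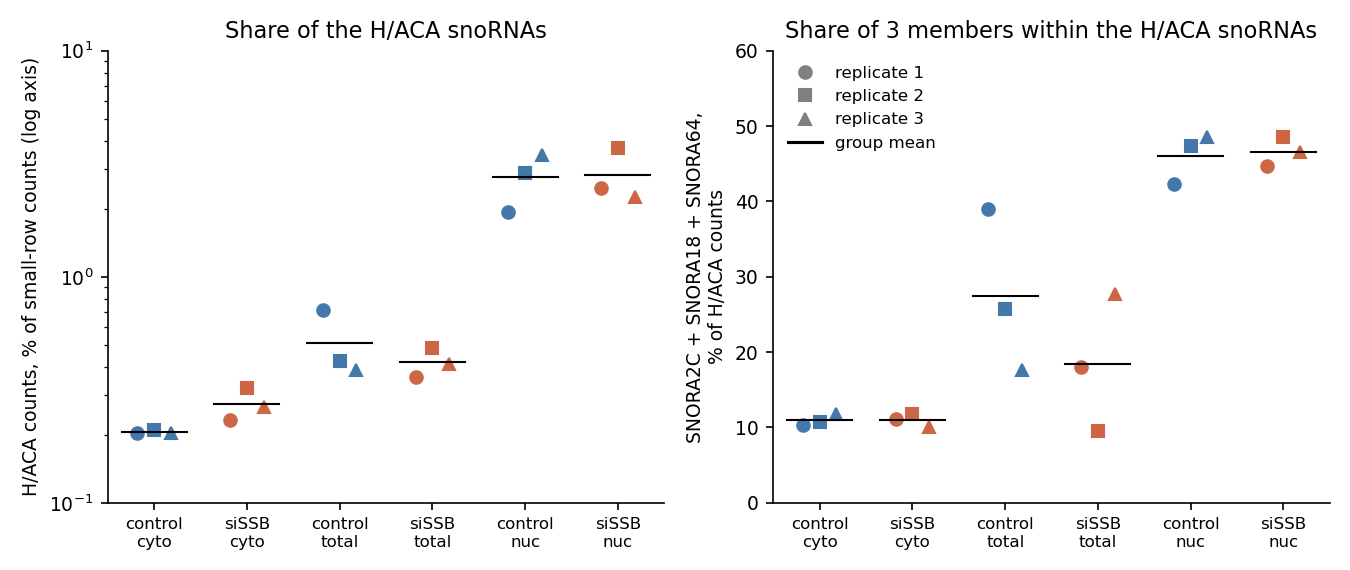
H/ACA share of the small rows (% of counts, log axis) in each library, by group; each point is 1 library and each line a group mean (n = 3). Shares were 1.94% to 3.73% in nuc, 0.360% to 0.715% in total and 0.203% to 0.323% in cyto.

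Not only the amount but also the make-up of the H/ACA class differed by fraction. In nuc a few members dominated, with 4 or 5 of them making up 50% of the counts, whereas 14 to 16 members were needed in cyto. In total RNA the number was 4, 9 and 11 in control and 11, 14 and 9 in siSSB. SNORA2C, SNORA18 and SNORA64 together held 42.3%, 47.4% and 48.6% of H/ACA counts in control nuc and 10.4%, 10.7% and 11.8% in control cyto. Their share in control total was 38.9%, 25.7% and 17.6%, so that replicate 1 lay nearest to nuc. In siSSB it was 44.7%, 48.6% and 46.6% in nuc, 11.2%, 11.8% and 10.1% in cyto and 18%, 9.49% and 27.7% in total. The groups nuc and cyto did not overlap in either treatment, and total ranged from below the cyto values to near the nuc values.

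Levels are compared between members as CPM (the count scaled to a fixed library total) per kb of the member's length, scaled between libraries by the trimmed mean of M-values (TMM). The median level over the 169 members was 19.1 CPM per kb in control nuc, 2.73 in control total and 0.754 in control cyto, and 18.5, 1.96 and 0.855 in siSSB. SNORA2C had the highest level in control nuc, 8529 ± 1648 CPM per kb (SD, n = 3), followed by SNORA18 with 7048 ± 3103 and SNORA64 with 5874 ± 1439. The ranges of these 3 over the libraries overlapped. Members were not compared within each library, and in raw counts SNORA2C averaged 34141 ± 3122 (SD) and SNORA64 22906 ± 3440. SNORA74D, in MATR3, followed at 2573 ± 578 and SNORA7A at 1976 ± 514, and the ranges of these neighbours overlapped as well. In cyto the order was another one, led by SNORA61 (25.1 ± 8.83 in control and 32.2 ± 11.4 in siSSB) and SNORA21, a 28S rRNA guide (23.3 ± 13.3 and 27.0 ± 11.4). SNORA61 was picked out after its values were seen.

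SNORA2C shows where along a member the counts came from. Its 5′ end overlaps MIR1291, and RefSeq (GRCh38.p14) places the mature hsa-miR-1291 at bases 2 to 25 of SNORA2C (chr12:48654494-48654517, minus strand), here with the seed, bases 2 to 8, in capitals:
hsa-miR-1291: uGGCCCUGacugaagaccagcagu
A separate 74 nt row around this miRNA held 98.0% of the SNORA2C count over all libraries. Its count relative to that of SNORA2C was 98.4% in control nuc, 97.0% in control total and 89.9% in control cyto, and 98.1%, 94.4% and 81.5% in siSSB. The counts given for SNORA2C were thus nearly all of reads at its 5′ part, and the full-length RNA was not told from a fragment. A miRNA row also lies over 4 other members, and its place along them is not described here. For SNORA36B the MIR664A row held at least 96.7% of the member's count in each group. For SNORA84 the MIR3651 row held 88.7% in control nuc and 33.3% in control cyto, so that its share differed by fraction. For SNORA36A the MIR664B row held 80.7% over all libraries, and for SNORA81 the MIR1248-2 row held 26.3%. These members were picked because of those rows.

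Members of 1 host could have like or unlike levels, and the ratio of the highest to the lowest mean level in control nuc was 1.12 in CNOT1 (SNORA50A and SNORA46), 2.99 in RPSA (SNORA6 and SNORA62) and 3.05 in RCC1 (SNORA73A and SNORA73B). It was larger in other hosts. TAF1D carries SNORA25, SNORA32, SNORA1, SNORA8, SNORA18 and SNORA40, whose mean levels in control nuc ran from 76.5 CPM per kb for SNORA1 to 7048 for SNORA18, a ratio of 92.1. In KANSL2 the level of SNORA2C was 95.2 times that of SNORA2B (89.6 CPM per kb). In RPS2 the level of SNORA64 was 152 times that of SNORA10 (38.8 CPM per kb). SNHG17, a long noncoding RNA, carries 5 rows of the SNORA71 family, with levels from 19.2 for SNORA71C to 285 for SNORA71A, an 18S rRNA guide. The pair of SNORA71B rows in it overlap and count almost the same reads.

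Whether H/ACA snoRNAs sit in nuclei was asked by comparing nuc with cyto libraries in control cells. Relative to all rows, they stood far to the nuclear side, and guides of 18S and of 28S rRNA had medians close to each other. Of 119 members that passed the filter on low counts, 116 were higher in nuc and 0 lower (adjusted p under 0.05 in the same test), where 9.21% of all 26774 rows tested were higher and 14.1% lower. The median log2 fold change of the members was 5.46 and that of all rows −0.27, and the members' median turned to −0.47 when libraries were scaled by the C/D box snoRNA total. In siSSB cells 118 of 119 were higher and 0 lower (all rows 10.8% and 14.5%), with a median of 5.01 against −0.19. C/D box snoRNAs, for comparison, had 167 of 173 higher and 4 lower in control, with a median of 5.40. A member low in cyto could pass the filter through its nuc counts alone, and these counts and medians are given as a description.

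By role, 15 of 15 rows of 18S rRNA guides were higher in nuc in control under TMM scaling (median log2 fold change 5.36, range 2.91 to 7.53). Both rows of SNORA71B, which count almost the same reads, are among them. Also higher were 11 of 11 guides of 28S rRNA (median 5.55, range 1.84 to 9.25) and 2 of 2 guides of 5.8S rRNA, SNORA69 and SNORA72 (median 4.94). SNORA73A and SNORA73B, which process 18S precursor, had 3.77 ± 0.34 (SE) and 2.47 ± 0.37, below the median of either guide class and below 0 by C/D box snoRNA total or library size alone. SNORA74A (U19) and its relative SNORA74B were both higher, SNORA74A by 5.40 ± 0.37 (−0.55 by C/D box snoRNA total).

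Under TMM scaling single members spanned the range from about equal levels in nuc and cyto to counts found almost solely in nuc. SNORA47 counted 1663, 2826 and 5543 in control nuc against 7, 4 and 14 in control cyto. Every nuc library was more than 100 times above every cyto library, and the log2 fold change was 10.71 ± 0.57 (SE, adjusted p = 9.13e-16). SNORA80A counted 63, 84 and 163 in control nuc and 0 in each control cyto library. After TMM scaling this is at least 137-fold higher in nuc when each cyto library is set to a floor of 3 counts. The 3 cyto libraries without a count leave the size of this ratio unknown above that bound. The bound itself depends on the scaling and was computed for TMM alone. SNORA57, in CSKMT, counted 4348, 4272 and 6558 in nuc against 20, 20 and 32 in cyto (9.73 ± 0.44). SNORA2C counted 30812, 34608 and 37004 in nuc against 173, 146 and 316 in cyto (9.37 ± 0.42, adjusted p = 2.03e-16). In both the groups lay far apart.

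At the other end were SNORA62, SNORA79 and SNORA79B. SNORA79 counted 13, 12 and 17 in control nuc against 126, 63 and 89 in control cyto, without overlap in raw counts. Its TMM-scaled log2 fold change was −0.78 ± 0.39 and did not pass the test (adjusted p = 0.162). SNORA79B, which shares its name but has a different host, counted 65, 79 and 85 in nuc against 134, 90 and 159 in cyto. After TMM scaling it was higher in nuc by 1.26 ± 0.33 (adjusted p = 0.00379), and lower by library size alone, C/D box snoRNA total or the total of small rows. SNORA62 counted 247, 88 and 98 in nuc against 161, 95 and 211 in cyto, overlapping, and its TMM-scaled value was higher in nuc by 1.84 ± 0.35 (adjusted p = 9.39e-05), again with the opposite sign under those 3 scalings.

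**Figure D2:**
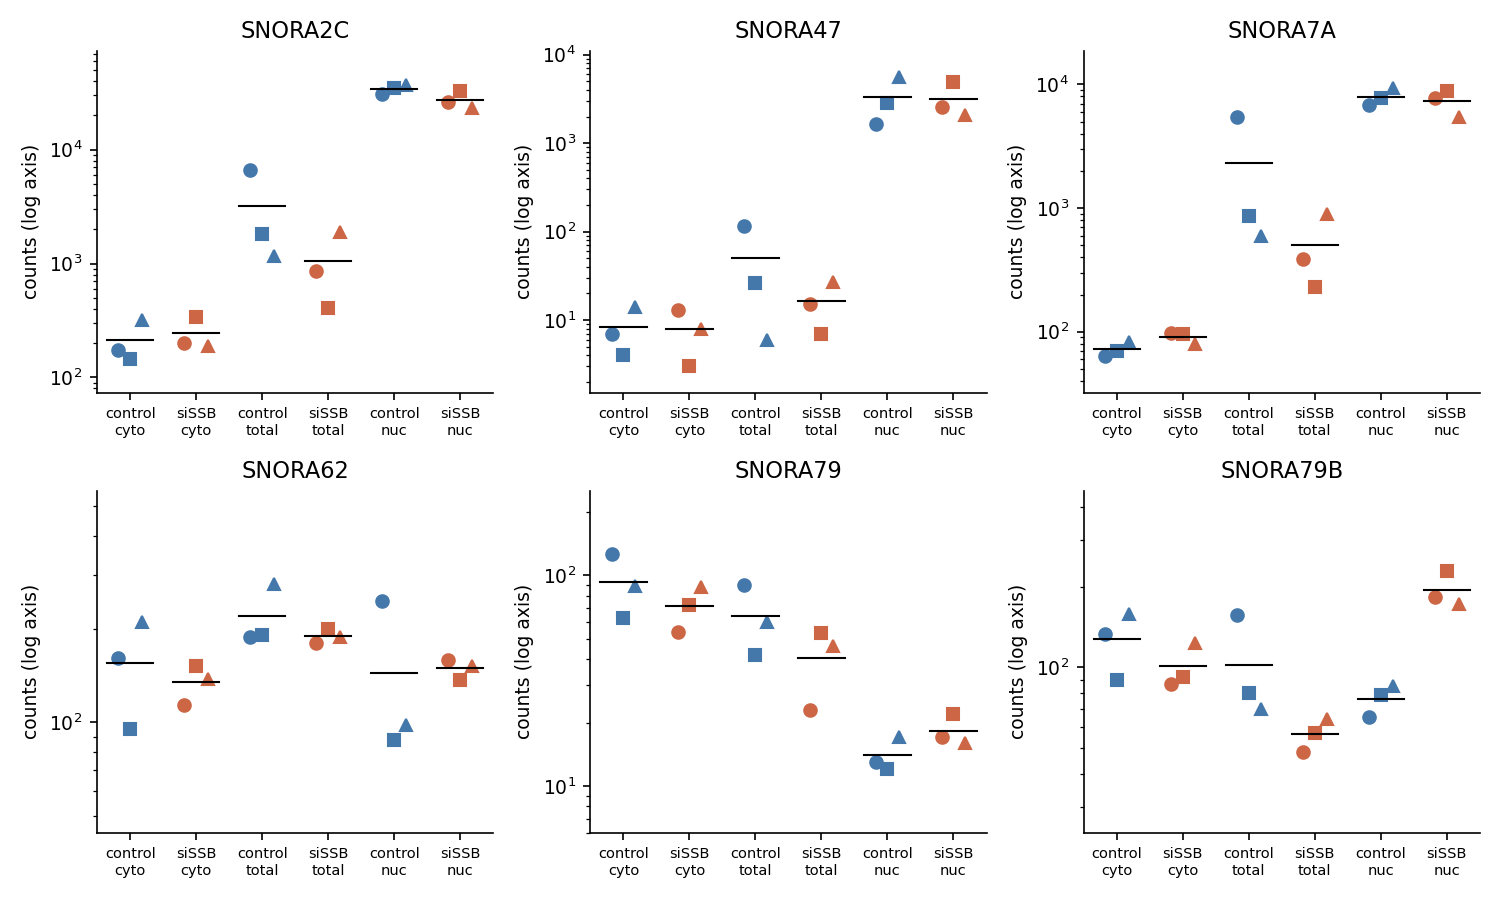
Counts of 6 members in each library (log axis, unscaled; each point 1 library, lines group means, n = 3). SNORA2C, SNORA47 and SNORA7A lie far higher in nuc than in cyto, whereas SNORA62, SNORA79 and SNORA79B have counts of the same order in the fractions or lower ones in nuc.

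The place of the zero between nuc and cyto depended on how libraries were scaled. With 5 other scalings the median of the 119 members in control was 5.47 (DESeq2 size factors), 5.02 (miRNA total), 2.53 (total of small rows), 1.33 (library size alone) and −0.47 (C/D box snoRNA total), and the count of members higher and lower was 116 and 0, 115 and 0, 91 and 5, 74 and 18, and 27 and 42. The median of all rows moved with it, to −0.27, −0.68, −3.15, −4.33 and −6.10, and the members' median stayed 5.63 to 5.74 above that of all rows. Under library size alone, SNORA79B was lower in nuc by −2.89, SNORA62 by −2.32 and SNORA73B by −1.73. The lowest member stood at −4.93 by library size alone, −6.76 by C/D box snoRNA total and −3.74 by the total of small rows.

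**Figure D3:**
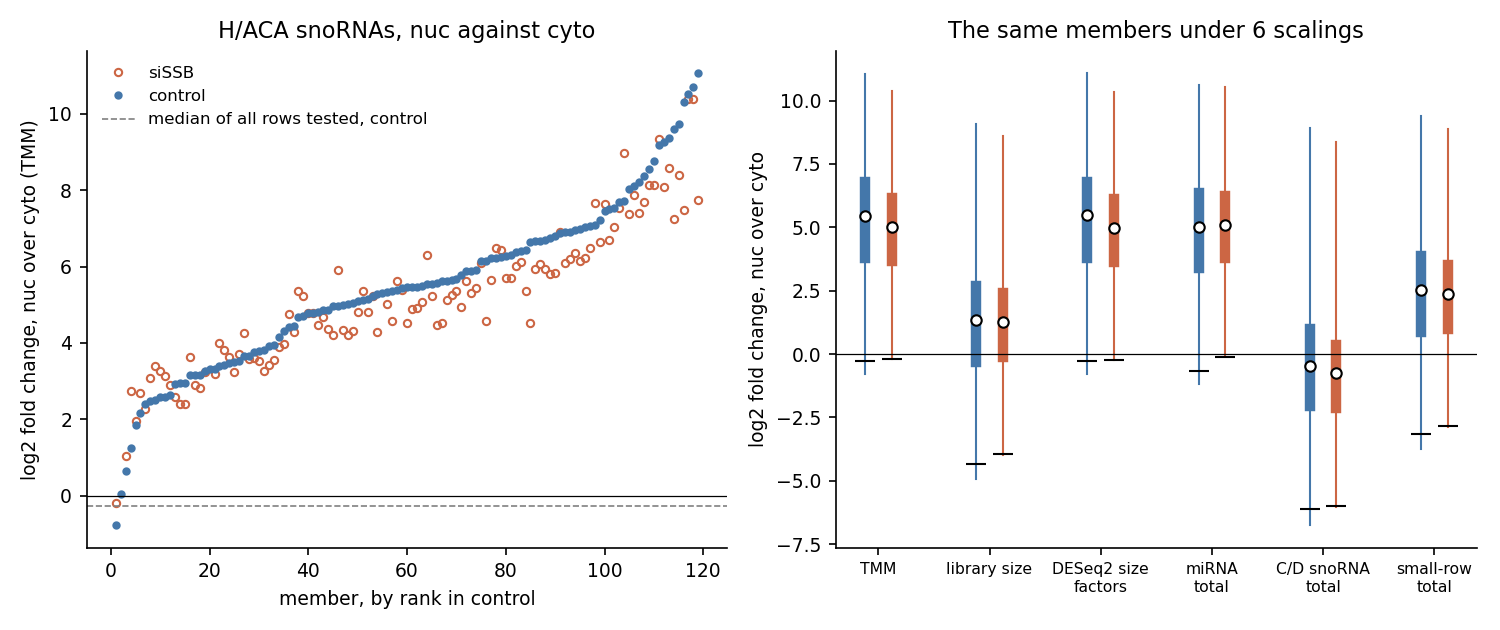
Left, log2 fold change nuc over cyto (TMM scaled) of the 119 members ranked in control (filled) with siSSB (open), with a dashed line at the median of all rows in control. Right, range, quartiles and median of the members in control and in siSSB under 6 scalings, with a dash at the median of all rows. Members lie from −0.78 to 11.06 on the left, and on the right members and all rows shift together.

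In siSSB cells SNORA47 (2547, 4975 and 2064 in nuc, 13, 3 and 8 in cyto) was highest among members with a mean of at least 50 counts, at 10.38 ± 0.50. It was followed by SNORA80B, in ODC1 (614, 905 and 496 against 3, 4 and 3), at 9.35 ± 0.47 and SNORA2C at 8.58 ± 0.41. SNORA80C, below that mean, had 0 counts in siSSB cyto and a mean of 76 in siSSB nuc. With the floor of 3 counts and TMM scaling it was at least 84.95-fold higher in nuc. SNORA79 (17, 22 and 16 against 54, 72 and 88), also below that mean, was again lowest of all members tested, at −0.19 ± 0.36 (adjusted p = 0.749). SNORA62 stood at 1.95 ± 0.34, SNORA53, in SLC25A3, at 2.26 ± 0.34 and the shorter SNORA71B row at 2.40 ± 0.35. SNORA80A, which had no count in control cyto, had 1, 4 and 2 counts in siSSB cyto and 161, 248 and 75 in nuc.

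Features that did not define the class tracked this range only loosely. Across the 119 members the control value of nuc over cyto had a Pearson correlation of 0.32 (Spearman 0.25) with GC content, −0.20 (−0.06) with length and 0.02 (0.06) with the log2 level in control total. These points share libraries and some share reads, and are not independent. The 8 members over 160 nt had a median of 3.47 and the 111 up to 160 nt one of 5.54. Members with both box sequences (92) had a median of 5.46 and those without (27) one of 5.40. Members hosted by long noncoding RNAs (21) and by protein-coding genes (89) had medians of 5.36 and 5.47.

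The siSSB libraries ask whether these RNAs depend on La. In total RNA no member passed the test, while most had estimates below 0. Of 101 members tested, 0 were called at an adjusted p under 0.05 by edgeR, where 1.34% of 13883 rows were. At an unadjusted p under 0.05 there were 29 members and 2301 of all 13883 rows, and DESeq2 called 1 member and 324 rows in all. The median log2 fold change was −0.54 against −0.01 over all rows, with 89 members below 0 and 12 above, and the members' median was above 0 by library size alone, C/D box snoRNA total or the total of small rows. C/D box snoRNAs had a median of −0.63 over 172 tested, with 1 lower, and scaRNAs, their relatives of Cajal bodies, −0.16 over 23.

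SNORA7A was lowest among members with at least 50 counts on average. It counted 5483, 862 and 600 in control total and 384, 230 and 897 in siSSB total. The groups overlap, and control replicate 1 is more than 6 times its fellows. The log2 fold change was −2.36 ± 0.79 (adjusted p = 0.146). Its near copy SNORA7B counted 145, 62 and 53 against 29, 84 and 64 (−0.77 ± 0.42, adjusted p = 0.415). SNORA74B, the relative of U19, counted 188, 27 and 29 against 21, 25 and 28 (−1.92 ± 0.67, adjusted p = 0.160). In this case too control replicate 1 alone was far from the others.

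SNORA18 counted 8852, 2295 and 1247 in control total against 907, 668 and 2204 in siSSB total (−1.87 ± 0.69, adjusted p = 0.195). SNORA2C counted 6590, 1799 and 1174 against 861, 410 and 1898 (−1.73 ± 0.69, adjusted p = 0.232). Both overlapped, with siSSB replicate 3 above control replicate 3. SNORA3B, in RPL27A, counted 554, 201 and 112 against 72, 117 and 146 (−1.57 ± 0.51, adjusted p = 0.134) and was the member that DESeq2 called (−1.55, adjusted p = 0.0447). It was picked out for that call.

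Highest were SNORA71A (185, 192 and 211 against 187, 462 and 186; 0.30 ± 0.27), SNORA52, a 28S rRNA guide (52, 58 and 42 against 53, 107 and 47; 0.25 ± 0.28), and SNORA73B (99, 99 and 111 against 118, 165 and 103; 0.17 ± 0.22). In SNORA71A and SNORA52 siSSB replicate 2 alone stood above control. SNORA73A counted 180, 185 and 202 against 153, 181 and 157 (−0.34 ± 0.21, adjusted p = 0.479), a narrow spread beside that of SNORA7A. Of the 14 rows of 18S rRNA guides tested, both SNORA71B rows among them, 0 were called (median −0.46, range −1.21 to 0.30). Of the 11 guides of 28S rRNA 0 were called (median −0.64, range −2.36 to 0.25).

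**Figure D4:**
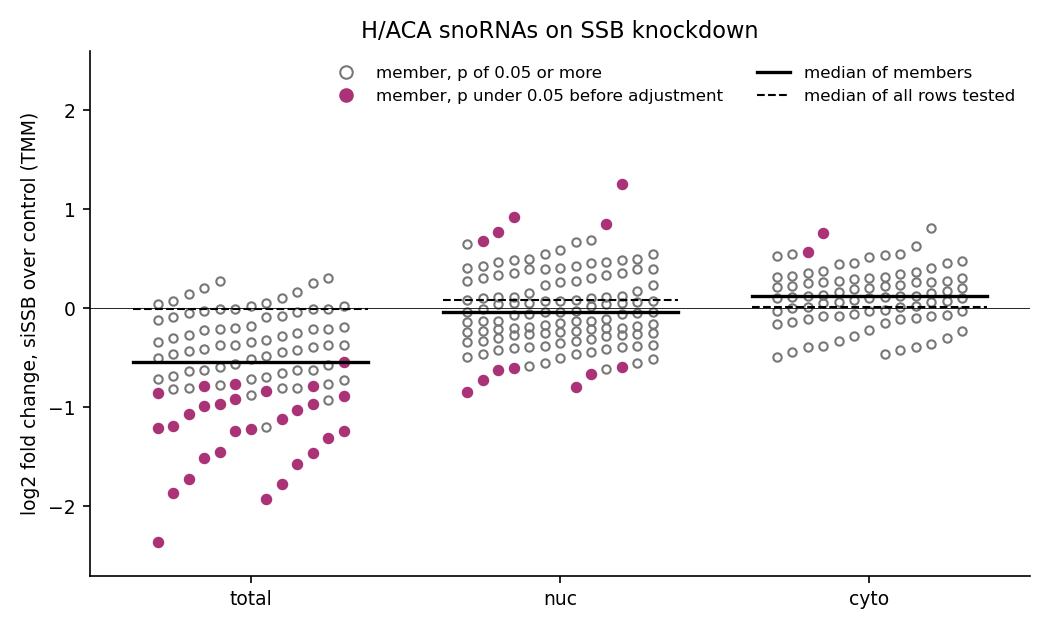
Log2 fold change siSSB over control of each tested member (TMM scaled) in total, nuc and cyto; filled points have an unadjusted p under 0.05 and none passed after adjustment. Medians were −0.54 (n = 101), −0.04 (n = 125) and 0.12 (n = 86).

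Control total replicate 1 carried much of the estimate in total RNA. Without it the median was −0.22 against 0.02 over all rows, with 4 members and 1744 of 16737 rows at an unadjusted p under 0.05. Of the members 0 were called in that fit, where 148 rows were. Leaving out another library gave medians from −0.38 to −0.76. Without control total replicate 3 the test called 10 members, all lower, where 253 of 16154 rows were lower in the same fit (0.972% of rows with every library included). The scaling mattered as well: the median was 0.06 by library size alone (2 called, SNORA7A and SNORA18, where 716 of 13883 rows were called), −1.04 by miRNA total (50 called, all lower, where 2085 of 13883 rows were lower) and 0.23 by C/D box snoRNA total, while it stayed 0.49 to 0.53 below that of all rows in each of these. When only rows of at most 500 nt were fitted, it was −0.14 against 0.04 over those rows, with 6 members and 471 of 1753 rows at an unadjusted p under 0.05.

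Members with a higher ratio of nuc to cyto had lower estimates in total RNA, a relation that was weaker without this library. The comparisons share no library. Across 100 members Pearson's correlation between nuc over cyto in control and siSSB over control in total was −0.46 (Spearman −0.40), and without control total replicate 1 it was −0.14 (−0.17, 102 members). The 30 tested members with the highest nuc over cyto (6.27 to 11.06) had a median of −0.94, and the 36 with the lowest (−0.78 to 4.77) one of −0.35. Without that library the medians were −0.28 and −0.16. The 40 members with the highest nuc over cyto held 81.0% to 86.8% of H/ACA counts in nuc and 33.7% to 36.5% in cyto. They were picked by this ratio in control, so the contrast between control nuc and control cyto is built in. In control total they held 75.7%, 58.2% and 51.1%, and in siSSB total 50.2%, 33.3% and 58.8%. Replicate 1 of control total had the value closest to nuc, and the part this plays in the lower estimates was not tested.

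**Figure D5:**
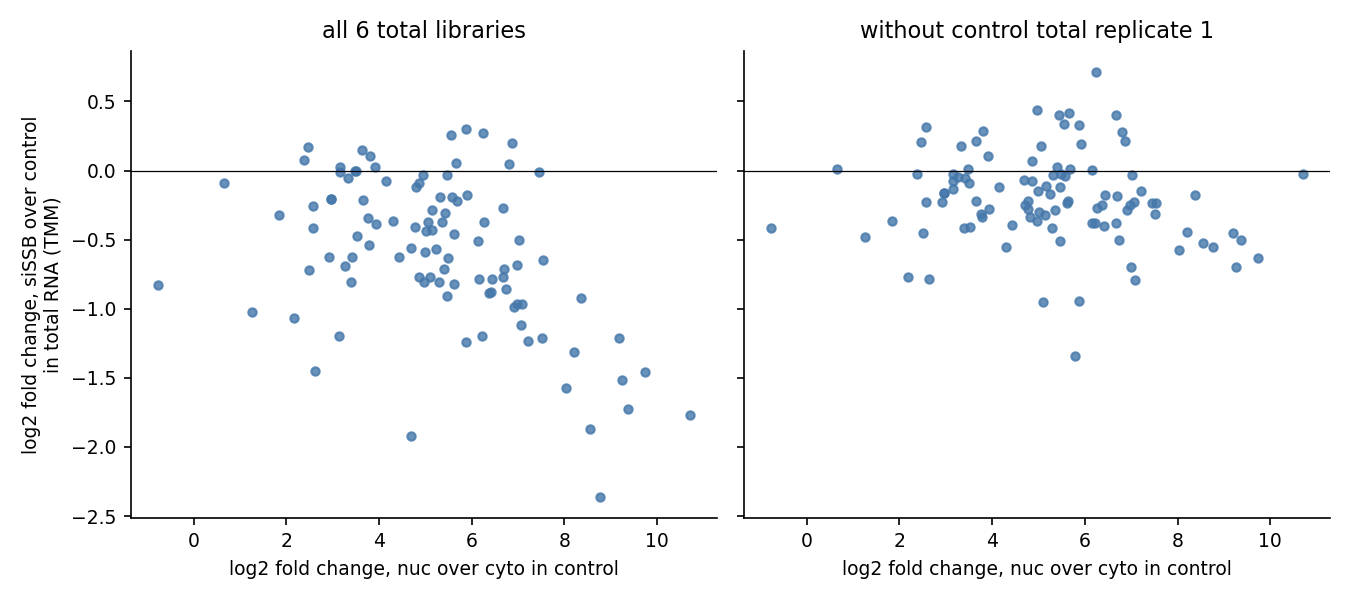
Log2 fold change siSSB over control in total against log2 fold change nuc over cyto in control, 1 point a member, with all libraries (left) and without control total replicate 1 (right). The downward trend (Pearson −0.46, 100 members) is weaker on the right (−0.14, 102 members).

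In nuc the members' median lay close to that of all rows. Of 125 tested 0 were called by edgeR (0.378% of 6873 rows), and DESeq2 called 1 (37 rows in all). An unadjusted p under 0.05 was found for 12 members and for 959 of all rows. The median was −0.04 and that of all rows 0.08. It was 0.20 against 0.02 when only rows of at most 500 nt were fitted, and leaving out 1 library gave −0.24 (control nuc replicate 1) to −0.0098 (control nuc replicate 3). SNORA79B counted 65, 79 and 85 in control nuc and 183, 230 and 173 in siSSB nuc. The groups do not overlap, and the log2 fold change was 1.26 ± 0.29 (unadjusted p = 0.000438, adjusted p = 0.0913). DESeq2 called it at 1.15 ± 0.31 (adjusted p = 0.0261). In total RNA it pointed the other way, with 157, 80 and 70 in control and 48, 57 and 64 in siSSB, and in cyto the ranges overlapped, with 134, 90 and 159 against 87, 92 and 124.

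The next were SNORA11, in MAGED2 (24, 43 and 43 in control nuc against 79, 88 and 58 in siSSB nuc, 0.92 ± 0.33, adjusted p = 0.249) and SNORA73B (103, 81 and 127 against 153, 289 and 133, 0.77 ± 0.32, adjusted p = 0.295). Neither pair of raw ranges overlaps. Lowest were SNORA77B, in RANBP1 (1836, 1599 and 1631 against 707, 1308 and 957, −0.84 ± 0.29, adjusted p = 0.249), SNORA32 (1486, 2361 and 1025 against 1135, 988 and 956, −0.72 ± 0.32) and SNORA57 (4348, 4272 and 6558 against 2464, 4736 and 3161, −0.67 ± 0.31). Of these 3, SNORA77B alone had raw counts apart. The most abundant members gave −0.42 ± 0.23 (SNORA2C), −0.21 ± 0.32 (SNORA18) and −0.18 ± 0.25 (SNORA64), and SNORA74A gave 0.33 ± 0.33. The 18S and 28S rRNA guides had medians of 0.02 and −0.03.

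In cyto 0 of 86 members were called by edgeR (0.291% of 18921 rows) and 0 by DESeq2 (157 rows in all). An unadjusted p under 0.05 was found for 2 members and for 1260 of all rows. The median was 0.12 against 0.01 over all rows. It ran from 0.0049 without siSSB cyto replicate 2 to 0.30 without control cyto replicate 3, and was 0.31 when only rows of at most 500 nt were fitted. The highest were SNORA23, a 28S rRNA guide (39, 24 and 52 in control against 62, 87 and 50 in siSSB, 0.76 ± 0.29, adjusted p = 0.592), SNORA46, an 18S rRNA guide (32, 44 and 70 against 54, 81 and 95, 0.63 ± 0.30), and SNORA81 (96, 114 and 151 against 191, 194 and 175, 0.57 ± 0.24). Of these, SNORA81 alone had raw counts without overlap. The lowest were SNORA79 (126, 63 and 89 against 54, 72 and 88, −0.46 ± 0.34), SNORA79B (−0.39 ± 0.26) and SNORA11F (45, 23 and 106 against 46, 51 and 42, −0.28 ± 0.34).

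Whether the effect of siSSB differed between nuc and cyto was tested with an interaction term over the 12 fraction libraries. Of 126 members 0 were called by edgeR (0.0133% of 37493 rows) and 0 by DESeq2. At an unadjusted p under 0.05 there were 11 members by edgeR and 15 by DESeq2, where 1836 and 1480 of all rows were. The median difference, nuc effect minus cyto effect, was −0.33 against 0.01 over all rows, and 0.12 against 0.47 by miRNA total. When only rows of at most 500 nt were fitted, it was −0.19 against −0.15, and leaving out 1 library gave −0.49 (siSSB cyto replicate 1) to −0.19 (siSSB cyto replicate 2). SNORA79B had 1.49 ± 0.47 (unadjusted p = 0.0027, adjusted p = 0.958), with higher counts in siSSB nuc and overlapping ones in cyto, as above. SNORA28, an 18S rRNA guide, had 0.71 and SNORA31, in TPT1, 0.64 ± 0.47. At the other end SNORA80A had −3.38 ± 1.29 (adjusted p = 0.958), a value that rests on its 0 counts in control cyto and 7 in siSSB cyto. SNORA80D, in AIMP2, with 1 count over control cyto and 6 over siSSB cyto, had −2.37 ± 1.17. For one copy of SNORA15B-1, in CCT6P1, which is identical to a second copy, the value was −1.57 ± 0.56.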

How the data were processed

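Small RNA was sequenced from total, nuclear and cytoplasmic RNA of HEK293T cells (mirVana PARIS fractionation, NEBNext small RNA kit). The authors deposited 1 table of raw counts per annotated row with hg38 coordinates. The submitters' processing notes name Bowtie2 and bedtools, and versions and the treatment of multi-mapped reads were not given in the sources used here. Rows carry 25 nt of flank on each side, rows overlap, and the sources do not state whether strand was used in counting. Reads of overlapping, antisense or near-identical genes may therefore be shared. Identical-count rows were used once among members.

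Groups came from the labels, with 3 replicates each. Counts were fitted on all rows with edgeR 4.0.16 (filterByExpr, TMM, glmQLFit, glmQLFTest) in R 4.3.3, with only the groups compared, and rows were called at a Benjamini-Hochberg adjusted p under 0.05, taken across every row tested. The standard error (SE) is the log2 fold change divided by the square root of F. DESeq2 1.42.0 was an alternative, beside other scalings, filters, a replicate block and leaving out each library. The p-values measure the spread between these replicates. Hosts came from GENCODE v44, and the middle part of a sequence searched for ANANNA is 40% to 65% of its length, on the listed strand.

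Members named with values were the 6 highest in level, the 3 highest and 3 lowest log2 fold changes per comparison among members with a mean of at least 50 counts, members called in a knockdown comparison or the interaction, and members of known role. Others are marked where they appear. The members, lists and rules were chosen with earlier results of these data known. The tests were tested on simulated data, where log2 changes of 2 were recovered in 91.4%, 97.9% and 92.6% of cases for total, nuc and cyto and those of 1 in 28.2%, 44.4% and 23.7%. The simulation drew the changed rows from the whole table and gave every row the same fixed dispersion (extra spread between replicates). These rates therefore need not hold for members with a wide spread, such as SNORA7A in total RNA.

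Depth was 2468129 to 7970923 small-row counts per library, and 131 to 150 members had a count in a library. Floors of 3 counts cover counting error only. One sequence is not reported here.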

Additional observations from a re-analysis of the deposited data

How the results depend on the processing

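In total RNA, 0 members were called, and 2 by library size alone (716 of 13883 rows in all), 50 by miRNA total (2117), 1 each by C/D box snoRNA total (691), by the total of small rows (691) and by DESeq2 (324), and 18 without a filter on low counts (626 of 114675). Leaving out 1 library gave 0 to 10, the 10 without control total replicate 3. In nuc, 0 were called, and 1 each by miRNA total (34 of 6873 rows), by DESeq2 (37) and with only rows of at most 500 nt (25 of 1170), each time SNORA79B (log2 fold changes 1.50, 1.15 and 1.50). Leaving out 1 library gave 0 calls in nuc, in cyto and in the interaction. Nuc over cyto by C/D box snoRNA total gave 69 calls in control (27 higher and 42 lower, with 97.5% of all rows lower) and 74 in siSSB (20 higher and 54 lower, with 97.6% lower). With TMM scaling, leaving out 1 library gave 108 of 111 members (5054 of 26136 rows) to 126 of 129 (5353 of 30648 rows) called in control. In siSSB it gave 105 of 106 members (5076 of 20609 rows) to 126 of 130 (6147 of 31668 rows). The cause of these shifts was not tested.

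The main fits did not pair samples by replicate number. Same-numbered samples had correlations of deviations from −0.42 to 0.13. Samples of different number were not compared in this way, so these values cannot tell whether the numbers pair the samples. With a replicate block in the edgeR fit SNORA79B was the 1 member called in nuc (1.29 ± 0.30, adjusted p = 0.0337), where 40 of 6873 rows were called. In that setting 0 members were called in total (199 of 13883 rows), in cyto (4 of 18921) and in the interaction (4 of 37493).

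Nuc over cyto changed direction as follows, in the order library size alone, C/D box snoRNA total and total of small rows. In control, SNORA79B gave −2.89, −4.70 and −1.69, SNORA62 −2.32, −4.13 and −1.13, and SNORA73B −1.73, −3.58 and −0.53. SNORA73A gave −0.36 and −2.13 in the first pair of scalings, and by C/D box snoRNA total SNORA7B gave −1.18 and SNORA74A −0.55. In siSSB, SNORA62 gave −1.90, −3.94 and −0.78, SNORA53 −1.59, −3.64 and −0.47, and the shorter SNORA71B row −1.39, −3.41 and −0.29.

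Without SNORA2C, SNORA18 and SNORA64 the H/ACA share of small rows was 0.183% in control cyto, 1.47% in control nuc, 1.50% in siSSB nuc and 0.344% in siSSB total, a move of more than 1 SD in each, and by less in the other groups.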
